A study of Mus musculus with 4 samples.

Results

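STAT5 is a transcription factor that lies latent in the cytoplasm until a Janus kinase or a receptor tyrosine kinase phosphorylates it. It then forms dimers, enters the nucleus and binds DNA. Some of the genes it induces encode inhibitors of the same signal, so their RNA is commonly read as a trace of STAT5 activity in blood cells. The KIT mutant D816V is known for signalling through STAT5 in mast cells. Described here are 6 genes of this feedback and target circuit: Cish, Socs1 and Socs2, which encode SH2-domain inhibitors of cytokine signalling, the kinase gene Pim1, the cytokine gene Osm and the repressor gene Bcl6. They were chosen by symbol, with earlier results of these data known. All probe sets annotated to 1 of these 6 symbols and no other were taken. This gave 8 probe sets of 10861, and 6 genes of 6404, with 2 probe sets each for Socs2 and Pim1 and 1 for each other gene.

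The arrays came from EML cells, a line of mouse blood progenitors that needs stem cell factor (SCF), the ligand of KIT, to grow. A KIT mutant was brought in by retrovirus on the pLXSN vector, the cells were selected with geneticin and then for growth without factor, and KIT-expressing cells were sorted, so each mutant was 1 selected population. The 4 groups were D816V, a kinase domain mutant, with SCF at 250 ng/mL for 48 h and without SCF, and Del417-419insY, an extracellular domain mutant, with SCF at the same dose and time and without SCF. Each group had 1 array, no line without a KIT mutant was analysed here, and precision is limited by the number of arrays. Values are log2 levels, each probe set having its own zero, so arrays can be compared for a gene but genes cannot be compared with each other, and whether a gene is expressed at all cannot be read. In such bulk RNA, fewer cells of a type and less RNA per cell cannot be told apart.

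STAT dimers bind the gamma-activated site, whose letters are TTCNNNGAA, the same on both strands. RefSeq promoter windows (GRCm38.p6, 250 bases before to 50 after a start) were matched by symbol for 4 of the 6 genes, Cish, Socs1, Pim1 and Bcl6. The motif was found in 8.30% of all 32851 windows and at least 2 times in 0.457% of them. The stretches around its matches are given for Cish and Bcl6, since of these 4 genes only they had a match. Capitals mark the matches, and each sequence runs 5′ to 3′ on the gene's strand.
Cish, chr9:107296629-107296688, plus strand: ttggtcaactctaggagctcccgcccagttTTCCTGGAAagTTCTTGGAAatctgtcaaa
Bcl6, upstream start, chr16:23988932-23989000, minus strand: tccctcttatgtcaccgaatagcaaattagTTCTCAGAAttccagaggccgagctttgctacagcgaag
Bcl6, downstream start, chr16:23981333-23981481, minus strand: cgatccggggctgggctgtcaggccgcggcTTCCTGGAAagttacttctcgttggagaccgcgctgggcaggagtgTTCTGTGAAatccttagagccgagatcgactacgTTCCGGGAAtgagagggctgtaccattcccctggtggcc
In Cish the 2 matches lay at the annotated start, on bases 1 to 9 and 12 to 20 of the transcript, with 2 bases between them. In Bcl6 the downstream start had 3 matches, at bases -168, -122 and -88 from that start, and the upstream start had 1, at base -118. At least 3 matches were found in 0.0335% of windows. The windows of Socs1 and both of Pim1 held none. The form with 4 free bases in place of 3 was in none of the windows of these 4 genes and in 6.95% of all. A match is letters in a window and was not tested as a binding site.

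Setting the mutants side by side shows how the line with the kinase domain mutant and that with the extracellular mutant differed. Each mutant was 1 selected population, so mutation and population cannot be told apart. With no line lacking a KIT mutant, a difference cannot be assigned to either mutation. The 3 SOCS-type inhibitors, Pim1 and Osm stood higher in D816V cells in both SCF conditions, by 2-fold or more in each, which 5.15% of all 6404 genes did. Bcl6 alone of the 6 was lower. In the limma fit over all 4 arrays 5 of the 6 genes were called higher (17.9% of all genes were) and 1 was called lower (24.7% of all genes were). The median difference was 2.56 over the 6 genes, against -0.10 over all genes. The 6 genes and the gene and marker lists below were chosen with earlier results of these data known. Their shares and medians beside all genes are thus description and not a test. This fit, genotype and SCF as additive terms with Benjamini-Hochberg adjustment over 6404 genes and a threshold of 0.05, has no replicate array and reads as error whatever differs between the responses of the lines to SCF. Over all genes it called 1147 higher and 1579 lower, a balance that turned to 1526 and 1387 after quantile normalization, 1720 and 1302 after median centring and 1628 and 1263 after cyclic loess, where the median difference of all genes became 0.04.

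**Figure D1:**
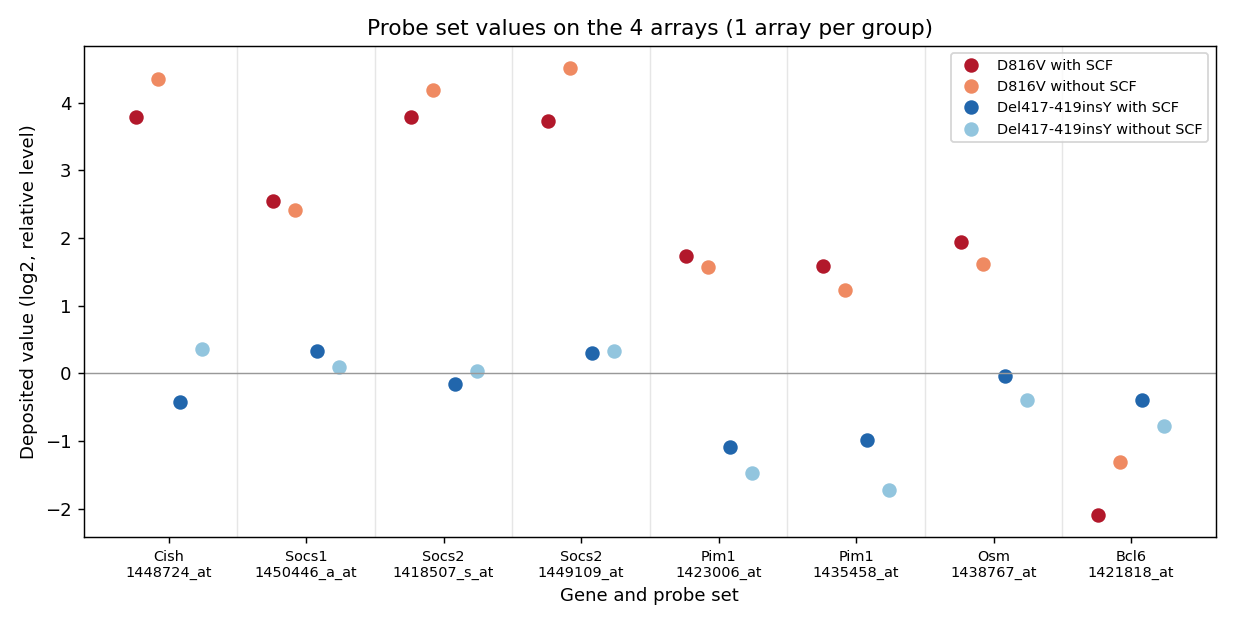
Deposited log2 relative level (vertical axis) of the 8 probe sets (horizontal axis) on the 4 arrays, 1 point per array. For 7 probe sets both D816V points lie above both Del417-419insY points, and for Bcl6 both lie below, the lowest being D816V with SCF at -2.09.

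Among the feedback inhibitors, Cish encodes CIS, which competes with STAT5 for phosphorylated receptor tails. Cish stood at 3.78 with SCF and 4.35 without SCF in D816V cells, against -0.43 with SCF and 0.36 without SCF in Del417-419insY cells. Both D816V arrays lay far above both others, and within each line the array with SCF was the lower. Its genotype difference was 4.21 with SCF and 3.99 without, 18.5-fold and 15.9-fold. The mean difference of 4.10 (SE 0.12, limma adjusted p = 0.00010) was the 32nd highest of the 6404 genes.

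Socs2 encodes an inhibitor best known in mice for restraining growth hormone signalling. It averaged 3.75 with SCF and 4.35 without SCF in D816V cells, against 0.07 with SCF and 0.18 without SCF in Del417-419insY cells. The lines did not overlap, and D816V cells without SCF were the highest. Its 2 probe sets differed little without SCF, with genotype differences of 4.15 and 4.18, and more with SCF, with 3.94 and 3.43. The gene's mean difference was 3.93, or 15.2-fold (SE 0.16, limma adjusted p = 0.00019), the 39th highest.

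Socs1 encodes a direct inhibitor of Janus kinases that also holds interferon responses in check. Its level was 2.55 with SCF and 2.41 without SCF in D816V cells, against 0.34 with SCF and 0.09 without SCF in Del417-419insY cells. Here SCF made little difference within a line, and again the lines did not overlap. Differences of 2.21 with SCF and 2.32 without gave a mean of 2.27, or 4.81-fold (SE 0.12, limma adjusted p = 0.00034). Only 142 genes had a larger positive difference.

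The size of these differences depended on how arrays were scaled. After cyclic loess the mean differences were 2.47 for Cish, 2.20 for Socs2 and 1.47 for Socs1, or 5.53, 4.60 and 2.77-fold, and after quantile normalization those of Cish and Socs2 were 10.7-fold and 9.11-fold. All 3 genes stayed higher and passed the test under every alternative run, with limma adjusted p from 9.5e-09 to 0.00034.

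Pim1 encodes a serine and threonine kinase that promotes survival and is active without phosphorylation, so its RNA and protein turnover set its activity. Over its 2 probe sets it averaged 1.65 with SCF and 1.40 without SCF in D816V cells, against -1.04 with SCF and -1.60 without SCF in Del417-419insY cells. On both probe sets the 2 D816V arrays were the high ones. The probe sets had genotype differences of 2.82 and 2.57 with SCF, and of 3.05 and 2.95 without SCF. The mean difference of the gene was 2.85, or 7.20-fold (SE 0.13, limma adjusted p = 0.00027). It was the steadiest of the 5 higher genes across the scalings, between 2.75 and 2.97.

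Osm encodes oncostatin M, a secreted cytokine of the interleukin 6 family whose gene is known to be induced through STAT5 in blood cells. Its probe set stood at 1.94 with SCF and 1.61 without SCF in D816V cells, against -0.04 with SCF and -0.40 without SCF in Del417-419insY cells. Genotype differences of 1.98 with SCF and 2.01 without were nearly equal, and the mean was 2.00, or 3.99-fold (SE 0.11, limma adjusted p = 0.00045). It ranked 171st from the top.

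Bcl6 encodes a zinc finger repressor that recognises DNA resembling the gamma-activated site and that STAT5 represses in lymphoid and other blood cells. It stood at -2.09 with SCF and -1.32 without SCF in D816V cells, against -0.40 with SCF and -0.77 without SCF in Del417-419insY cells. Both D816V arrays were lower, but the gap was 3.23-fold with SCF (difference -1.69), where 7.42% of all genes were 2-fold or more lower, and 1.46-fold without (difference -0.54). The mean difference of -1.12 (SE 0.28, limma adjusted p = 0.030) had the widest error of the 6, and 271 genes lay lower. After cyclic loess the differences were -0.89 with SCF and -0.19 without, with a limma adjusted p of 0.043. The 25th percentile filter on mean values removed this gene. Since each probe set has its own zero, this does not show low expression.

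**Figure D2:**
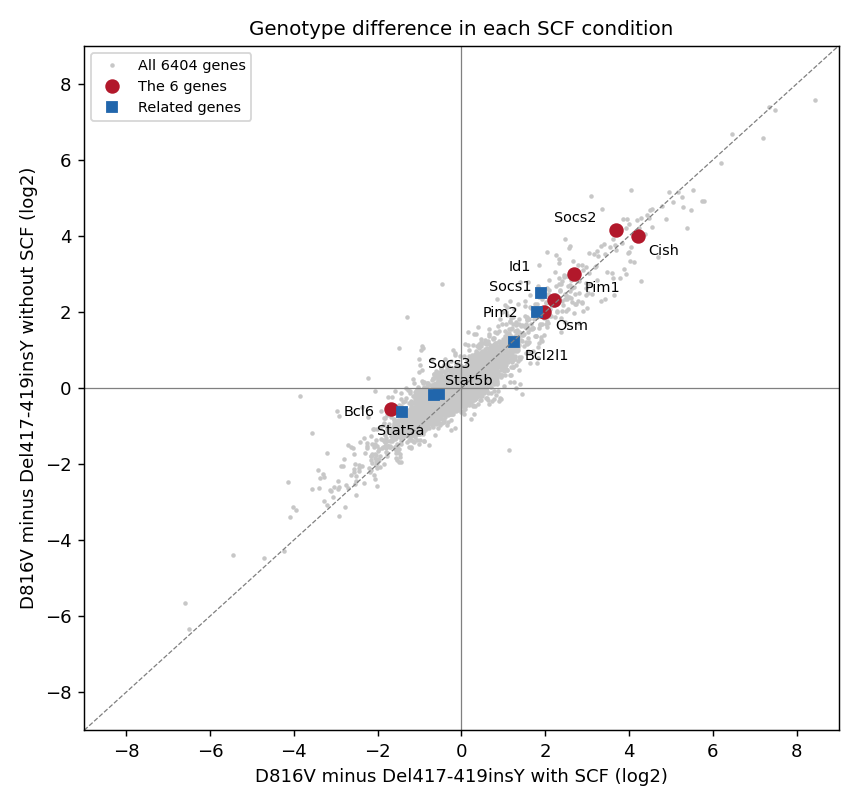
Genotype difference (log2) with SCF (horizontal axis) against that without SCF (vertical axis) for all 6404 genes, with the 6 genes as red circles, some related genes as blue squares and the dashed line where both are equal. The 5 higher genes lie near the line between about 2 and 4.2, and Bcl6 lies off it, at -1.69 with SCF and -0.54 without.

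The order of the 6 genes held only in part. With SCF it ran Cish, Socs2, Pim1, Socs1, Osm and Bcl6, while without SCF Socs2 (4.17) came before Cish (3.99). The mean differences of Cish and Socs2, 4.10 (SE 0.12) and 3.93 (SE 0.16), had errors that overlapped. After cyclic loess Pim1 came first, at 2.89, and Osm (1.75) passed Socs1 (1.47). Bcl6 was last in every scaling.

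**Figure D3:**
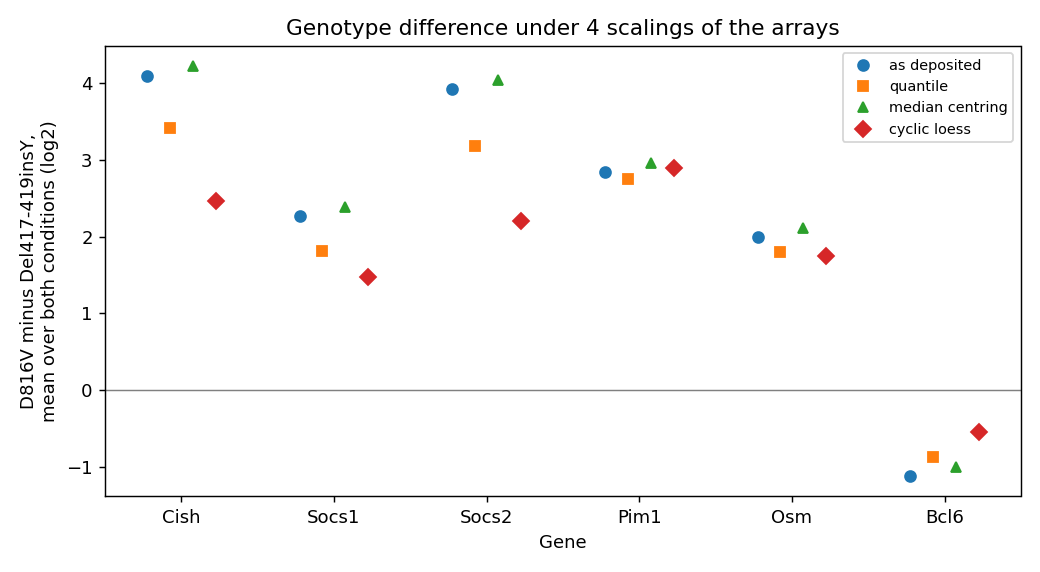
Genotype difference (log2, mean over both SCF conditions, vertical axis) of the 6 genes under the 4 scalings. Cish, Socs2 and Socs1 shrink most after cyclic loess (to 2.47, 2.20 and 1.47), Pim1 stays between 2.75 and 2.97, and no gene changes sign.

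Arrays with and without SCF show how each line stood after the ligand was added. None of the 6 genes was 2-fold different in either line, as 2.19% of all genes were, and none passed the limma test for SCF. That test called 0.0% of genes, 0 of 6404, while 1186 had an unadjusted p under 0.05, 3 of the 6 (Cish, Pim1 and Osm) among them. The smallest adjusted p over all genes was 0.089. Whether D816V cells respond less or more than Del417-419insY cells could not be tested with these arrays.

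Cish and Socs2 had negative SCF differences in both lines, of -0.57 in D816V and -0.79 in Del417-419insY cells for Cish, and of -0.59 and -0.11 for Socs2. The value of Socs2 in Del417-419insY cells was 0.02 after cyclic loess. For Cish the mean over both lines was -0.68 (limma adjusted p = 0.14), and it passed after median centring (-0.62, adjusted p = 0.043) and with the highest-mean probe set of each gene (-0.68, adjusted p = 0.042). Pim1, Osm and Socs1 had positive differences in both lines. These were 0.25 in D816V and 0.56 in Del417-419insY cells for Pim1, 0.33 and 0.36 for Osm, and 0.13 and 0.24 for Socs1. Their adjusted p-values from limma were 0.22, 0.22 and 0.43. Bcl6 was the exception in direction, at -0.77 in D816V and 0.37 in Del417-419insY cells, and 34.3% of all genes had opposite signs in the 2 lines. Its genotype difference with SCF minus that without was -1.15, a size that 60 genes, 0.937% of all, reached or passed in the deposited scaling. The gap was smaller in other scalings. The differences with and without SCF were -1.30 and -0.45 after quantile normalization, and -0.89 and -0.19 after cyclic loess.

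**Figure D4:**
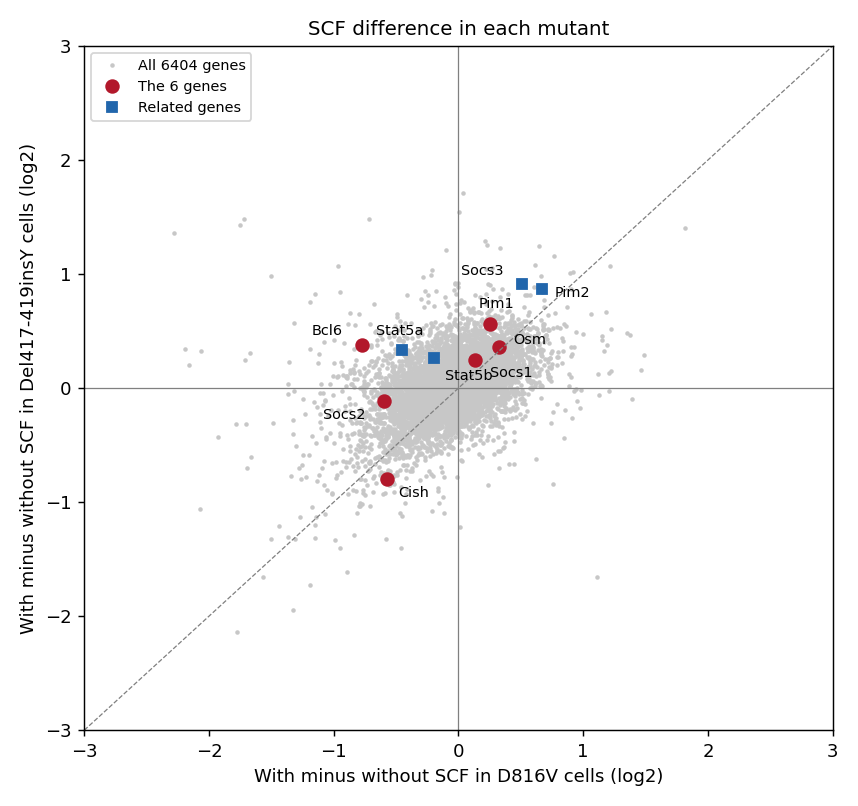
SCF difference (log2, with minus without) in D816V cells (horizontal axis) against that in Del417-419insY cells (vertical axis) for all 6404 genes, with the 6 genes as red circles and related genes as blue squares. Cish and Socs2 lie in the lower left, Pim1, Osm and Socs1 in the upper right, and Bcl6 in the upper left at -0.77 and 0.37.

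None of the other measured SOCS genes passed the genotype test. Of 8 family genes 6 were measured, 3 of them the genes above and the others Socs3, Socs5 and Socs7. Socs3, which encodes the main inhibitor of STAT3 signalling through the gp130 receptor chain, averaged -0.20 with SCF and -0.71 without SCF in D816V cells, against 0.35 with SCF and -0.57 without SCF in Del417-419insY cells. Its genotype difference was -0.34 (limma adjusted p = 0.11). Its SCF differences, 0.51 in D816V and 0.91 in Del417-419insY cells, were positive and above those of each of the 6 genes in both lines, though the mean of 0.71 had a limma adjusted p of 0.15. Socs5 and Socs7 had genotype differences of -0.11 and -0.24 (limma adjusted p = 0.51 and 0.17), and that of Socs5 was 0.01 after median centring. SOCS proteins recruit a ubiquitin ligase, and of its 4 measured subunit genes the adaptor gene Eloc was lower in D816V cells (-1.09) and the scaffold gene Cul5 higher (0.66, lost without the SCF term at an adjusted p of 0.25). The other 2, Cul2 and Rnf7, were at -0.26 and 0.01 and did not pass.

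Upstream, Stat5a was lower in D816V cells. It averaged -1.43 with SCF and -0.98 without SCF in D816V cells, against -0.02 with SCF and -0.36 without SCF in Del417-419insY cells. Both D816V arrays were the low ones, with a mean difference of -1.02 (SE 0.21, limma adjusted p = 0.018), or -0.62 after cyclic loess. Stat5b differed by -0.42 (limma adjusted p = 0.075), which did not pass, and was called lower with the highest-mean probe set (-0.49, adjusted p = 0.040). Of 8 measured STAT and JAK genes 1 was called higher and 2 lower, shares near the 17.9% and 24.7% of all genes, and after quantile normalization and cyclic loess none was higher and 3 were lower. Stat3 was the other lower one, at -0.81. Jak2, the kinase of the erythropoietin and interleukin 3 receptors, was called at 0.39 (limma adjusted p = 0.045) and lost that call after quantile normalization (0.082), after cyclic loess (0.16) and with no SCF term (0.115). Jak1, Jak3, Stat2 and Tyk2 stood at -0.49, -0.39, 0.27 and 0.19. Jak1, at a limma adjusted p of 0.052, was called lower under 6 alternatives (0.038 to 0.049), and Stat2 was called higher after median centring (0.032).

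Receptors whose ligands activate STAT5 had members on both sides, with 4 called higher, 4 lower and 3 not called among 11 measured genes. Over all genes 17.9% were called higher and 24.7% lower. After quantile normalization and cyclic loess 5 receptors were lower, Il2rb among them (limma adjusted p = 0.021 and 0.0027), and 3 were after median centring. The higher ones included Il4ra, the interleukin 4 receptor chain, at 2.35. Also higher were Csf2rb2 and Csf2rb, beta chain genes of the interleukin 3 family receptors, at 1.59 and 1.20. These beta chain genes are close paralogs, and reading of one's RNA by the other's probe sets was not tested. Among the lower ones were Il5ra, at -2.04, and Kit, at -1.42 or -0.81 after cyclic loess. The labels and files used here do not say which KIT species was transduced, so the Kit probe sets do not check the constructs. Of 10 measured further negative regulators, 1 was higher and 2 were lower, beside 17.9% and 24.7% of all genes. Under each of the 3 other scalings 2 were higher and 1 was lower. Dok1, at 0.46 and not called, was called higher under each of them. It was at 0.55 after quantile normalization, 0.59 after cyclic loess and 0.58 after median centring. The highest-mean probe set, the filter and an intensity trend also gave this call. Ptpn2, a phosphatase that acts on Janus kinases, was at 0.47, and its call was lost without the SCF term (adjusted p = 0.12). The leukocyte phosphatase gene Ptprc (CD45) was at -0.59 and Pias2 at -0.45, and Pias2 did not pass under 5 alternatives, among them all 3 other scalings (adjusted p from 0.059 to 0.40).

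Among 14 measured other STAT5 targets 8 were called higher in D816V cells, 1 lower and 5 neither, where 17.9% of all genes were higher and 24.7% lower. After cyclic loess 7 were higher and 1 lower, with 1628 higher and 1263 lower over all genes. The median difference of the list was 0.57, and 0.42 after cyclic loess. Id1, an inhibitor of differentiation factors, was at 2.21, Pim2, of the same kinase family as Pim1, at 1.90, Id2 at 1.24 and the survival gene Bcl2l1 at 1.23. The D-type cyclin gene Ccnd1 was lower, at -1.32. Pim2 stood at 2.52 with SCF and 1.86 without SCF in D816V cells, against 0.72 with SCF and -0.14 without SCF in Del417-419insY cells, and its difference was 1.23 after cyclic loess. Mcl1, Myc, Tfrc, Cdk6 and Cdkn1b did not pass, with differences between -0.24 and 0.19, and that of Tfrc, at -0.15, was positive after quantile normalization (0.07) and cyclic loess (0.25).

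**Figure D5:**
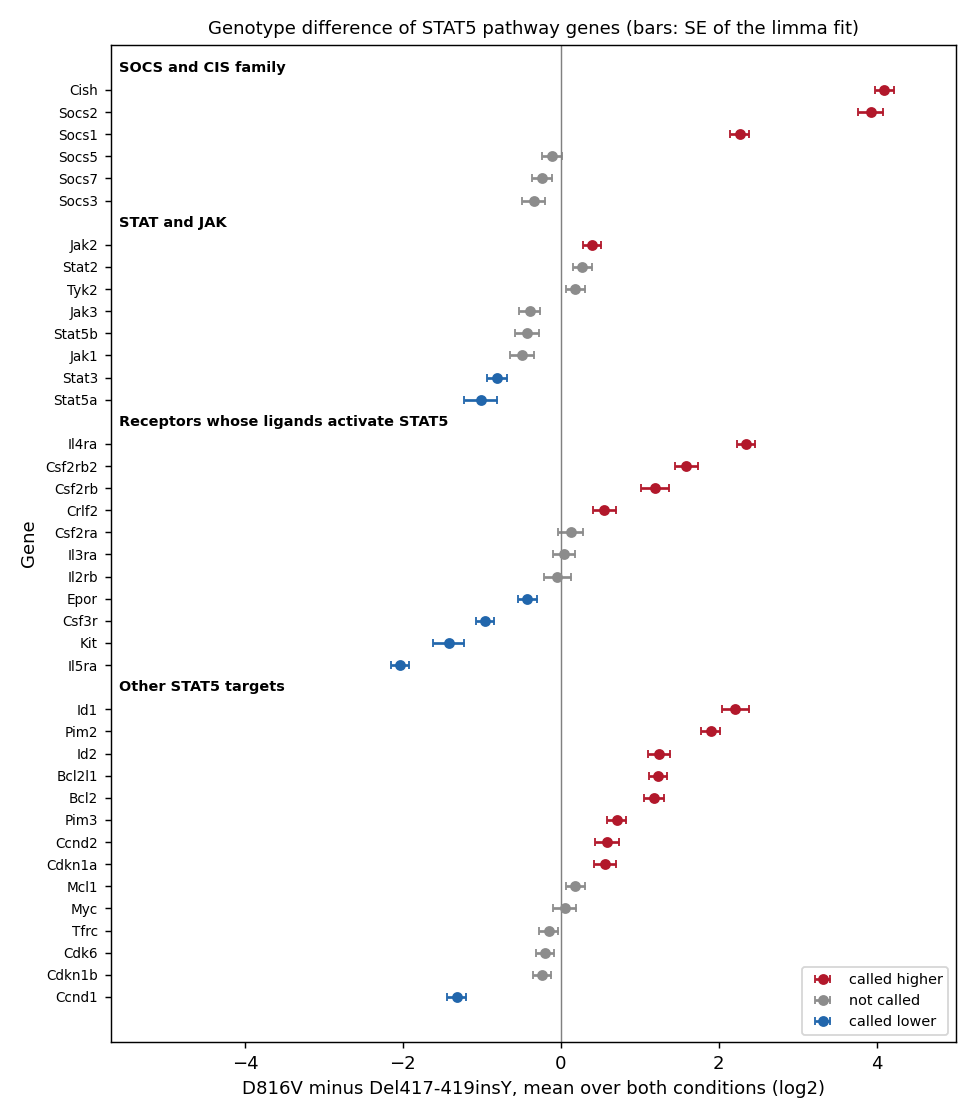
Genotype difference (log2, mean over both SCF conditions, horizontal axis) of the measured genes of 4 lists, grouped by role, with bars for the SE of the limma fit and colour for the call. Cish, Socs2 and Socs1 stand apart from the other SOCS genes, whose points lie between -0.34 and -0.11, and Stat5a and Stat3 are the lower genes of the STAT and JAK list.

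Genes around PIM kinases were mixed. Of 12 measured family members and substrates 4 were called higher, 1 lower and 7 neither, with a median of -0.0003. Over all genes 17.9% were called higher and 24.7% lower. Besides Pim2, the third family gene Pim3 was at 0.71 and the chemokine receptor gene Cxcr4 at 0.70. Cdkn1a, the cell cycle inhibitor p21, was at 0.56 and the transcription factor gene Foxo1 lower, at -0.57. The calls of Cdkn1a and Foxo1 were lost without the SCF term (adjusted p = 0.054 and 0.13), and that of Cxcr4 with an intensity trend (0.086), while the difference of Cxcr4 was 1.36 after cyclic loess.

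Corepressors of BCL6 and genes it is known to repress in B cells gave 5 higher, 1 lower and 4 not called among 10 measured genes. Over all genes 17.9% were called higher and 24.7% lower. The median of the list was 0.31, against -0.10 over all genes, and a link to the level of Bcl6 was not tested. Cd69, an early activation antigen, was higher at 2.09, with 1.40 with SCF and 2.78 without SCF. Bcl2 was at 1.18, or 0.55 after cyclic loess. The cyclin gene Ccnd2 was at 0.58 and was not called after cyclic loess (0.24, adjusted p = 0.22) or without the SCF term (adjusted p = 0.17). Cd44, an adhesion receptor gene of the same list, was far lower, at -4.60, or -3.94 after cyclic loess. Of the corepressor genes Bcor was at -0.50 and Tbl1xr1 at -0.28, and neither passed. Bcor (adjusted p = 0.055) was called lower under 4 alternatives, with adjusted p from 0.042 to 0.048. In the oncostatin M family 2 genes were measured, and Il6st, which encodes the signal-transducing chain gp130 of its receptors, was lower in D816V cells at -1.90 (limma adjusted p = 0.00071), or -1.31 after cyclic loess. Il6 stood at 0.23 and did not pass (adjusted p = 0.19), but was called higher after quantile normalization (0.47, adjusted p = 0.020) and cyclic loess (0.60, adjusted p = 0.0069).

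Each gene was also set beside all 6404 genes by the root mean square difference of the 4 array values, after each gene was centred on its own mean. Nearest to Cish were Glyat (0.099), Adora3 (0.18) and Rtp4 (0.18). Armcx3, Rab27b and Pgap4 were nearest to Socs2 (0.064, 0.16 and 0.17). For Socs1 the nearest were Lrp12, Il4ra and Itgb3 (0.058, 0.067 and 0.071), for Pim1 Usp17la, Capg and Bex3 (0.060, 0.12 and 0.13), and for Osm Sapcd1, Ecm1 and Ngly1 (0.079, 0.086 and 0.094). Bcl6 had the closest single match, Myct1 at 0.036, followed by Vsig10 and N4bp2l1 (0.085 and 0.098). Over 4 arrays such likeness describes these libraries only.

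Markers of other cell types moved with the mutants too, and their part in these results was not tested. Of 8 measured mast cell markers of 11, 7 were called higher in D816V cells (8 under each of the 3 other scalings) and none lower. Kit, also a mast cell marker, was counted only in the stem and progenitor list and was called lower, at -1.42. Over all genes 17.9% were called higher and 24.7% lower. Without the SCF term Mcpt4, Tpsb2 and Gata2 lost their calls (limma adjusted p = 0.098, 0.19 and 0.089). The mean level of the 8 mast cell markers was 0.20 with SCF and 1.28 without SCF in D816V cells. In Del417-419insY cells it was -1.74 with SCF and -1.19 without SCF. Of 5 measured stem and progenitor markers 4 were lower (3 under each of the 3 other scalings) and 1, Gata2, was higher. Their mean levels were -1.67 and -1.23 in D816V cells, against -0.31 and -0.62 in Del417-419insY cells. Lmo2, called lower, lost its call without the SCF term (limma adjusted p = 0.099). Gfi1, also lower, lost its call with an intensity trend (0.061) and robust eBayes (0.089). Among T and NK cell markers 2 of 11 were measured, Gzma at 8.01, or 3.85 after cyclic loess, and Nkg7 at 0.09, which did not pass. Of 2 measured monocyte and macrophage markers Cd68 was higher (2.81) and Lyz2 did not pass (-0.86). Lyz2 was called lower after quantile normalization (-0.63) and median centring (-0.74). It was also called lower in the highest-mean probe set setting, where its value from 1 probe set was unchanged (-0.86). The 1 measured fibroblast marker, Pdgfrb, was at -0.12 and not called, but 0.09 after quantile normalization and 0.36 and called higher after cyclic loess (adjusted p = 0.043). Array medians were -0.20 and -0.10 for D816V with and without SCF, against -0.05 and -0.02 for Del417-419insY with and without SCF. In the same order, the SD over probe sets was 0.79 and 0.72 for D816V, against 0.594 and 0.591 for Del417-419insY.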

How the data were processed

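RNA of 4 EML cultures was hybridised to Affymetrix mouse arrays, 1 array per culture, per the labels' protocols. Per the submitters' processing notes, the authors deposited RMA values, taken here as log2 since RMA gives that scale, although no source states the base. They lie around 0, and no source used here names the level they were set against. The table used here holds 10861 of the array's 45101 probe sets, by an unstated filter, so shares of called genes refer to these. Signal over background is unknown.

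Symbols came from the platform annotation (9633 probe sets with 1 symbol, 264 with several, 964 with none) and were updated through the gene ID to RefSeq GRCm38.p6; 11 had no match and kept their symbol. A gene's value was the mean of its probe sets. The fit used lmFit and eBayes of limma 3.58.1 in R 4.3.3 on ~ genotype + SCF, two-sided, with 1 residual degree of freedom per gene, a prior of 4.1 degrees of freedom and a prior SD of 0.127, and was tested on simulated data. P-values take no account of variation between repeat cultures, since nothing names any. A gene's own part of the error was the gap between its genotype differences with and without SCF, on 1 degree of freedom. This was pooled with the prior, which was estimated over all genes and had the larger weight, 4.1. For Osm that gap was -0.031, and the SE was still 0.11. An exact permutation of 2 arrays against 2 could not go below 0.333. Differences are D816V minus Del417-419insY and with minus without SCF.

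The 6 genes, the 9 gene lists and the 5 marker lists were chosen with earlier results of these data known. Named were the 6 genes, all measured SOCS, STAT and JAK genes, from each other list the called genes with the largest differences (at most 5, or 4 in lists with under 8 measured genes), and the 3 genes nearest to each of the 6. Genes given as not called were named after their values were seen. Lists overlap, and a gene counts in each. Alternatives were quantile, cyclic loess and median scaling, the highest-mean probe set, each probe set as a feature, a 25th percentile filter, no second term, an intensity trend and robust eBayes. Cyclic loess, the highest-mean probe set, the filter and the intensity trend took these relative levels in place of signal intensity.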

Additional observations from a re-analysis of the deposited data

Results flagged for a closer look

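SCF differences pointed in opposite directions in the 2 mutants for 4 of the 11 genes whose SCF differences were examined this way, with 1 array in each group, and the difference between the mutants was not tested. Bcl6 was at -0.77 in D816V and 0.37 in Del417-419insY cells. Stat5a stood at -0.46 in D816V and 0.34 in Del417-419insY cells, and Stat5b at -0.19 in D816V and 0.26 in Del417-419insY cells. Socs7 had the smallest values, -0.10 in D816V and 0.094 in Del417-419insY cells. Under the 3 other scalings the D816V values were between -0.36 and -0.17 for Stat5a, between -0.0985 and -0.013 for Stat5b, between -0.041 and -0.0028 for Socs7 and between -0.68 and -0.42 for Bcl6. Over all genes 34.3% had opposite signs, a share near that of these genes.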

How the results depend on the processing

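Direction and call of the genotype difference were the same for all 6 genes under the 9 alternatives, over 55 values, except that the 25th percentile filter removed Bcl6. The limma adjusted p of Bcl6 ranged from 0.0044 to 0.043. With the filter, no second term, an intensity trend or robust eBayes the size and direction could not change, only the call. The same holds for genes with 1 probe set under the 2 probe set settings. No paired analysis was possible because each group has 1 array with no replicate number, and leaving out an array leaves the differences within the other condition, given above. No other background correction or slide block was run, since only processed values were used. The causes of the shifts below were not tested. Of 148 differences from 1 array a side, 129 moved by less than the limma SD of such a difference. Many of these could not move, since the filter changes no value and the probe set settings change none for genes with 1 probe set. The 19 that moved came from quantile normalization, cyclic loess and the probe sets of Socs2. Quantile normalization gave, with SCF, 3.63 for Cish, 1.70 for Socs1, 3.03 for Socs2 and 1.72 for Osm, and without SCF 3.20, 1.92 and 3.34 for Cish, Socs1 and Socs2. It turned the mean SCF difference of Bcl6, which was not called, to 0.0048. Cyclic loess gave, with SCF, 2.55, 1.41, 1.93, 1.72 and -0.89 for Cish, Socs1, Socs2, Osm and Bcl6, and without SCF 2.38, 1.53, 2.47 and 1.78 for Cish, Socs1, Socs2 and Osm. With SCF, Socs2 was at 3.43 with its highest-mean probe set and at 3.94 and 3.43 on its probe sets. The SCF difference of Cish passed with medians centred (-0.62) and with the highest-mean probe set (-0.68).

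Genes called for SCF, higher and lower, were 1 and 1 after quantile normalization, 13 and 29 after cyclic loess, 113 and 143 with medians centred, 41 and 215 with the highest-mean probe set, 23 and 234 by probe set, and 2 and 8 with an intensity trend. For genotype, 690 genes were higher and 913 lower without the SCF term, and 2504 probe sets were lower. By probe set, 839 probe sets were 2-fold lower in D816V cells with SCF and 453 without SCF, and with the filter 237 and 131 genes were. All counts by probe set here are of probe sets, out of 9633. Those with the filter are out of fewer than the 6404 genes, so totals differ between settings. For SCF in D816V cells, 34, 32 and 32 were 2-fold higher after loess, after centring and by probe set, and 35, 50, 145, 234 and 39 lower after quantile normalization, loess, with the highest-mean probe set, by probe set and with the filter. In Del417-419insY cells 41, 33 and 12 were higher after quantile normalization, by probe set and with the filter, and 96 and 137 lower with the highest-mean probe set and by probe set.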
